A study of Mus musculus with 9 samples.

Results

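The genes that encode the subunits of the glutamate and GABA receptors were examined in dissected midbrain of mouse embryos at stage E14.5, when midbrain neurons are being born and are maturing. The members were all genes whose symbol names a subunit of an AMPA (*Gria*), kainate (*Grik*), NMDA (*Grin*) or delta (*Grid*) glutamate receptor, a metabotropic glutamate receptor (*Grm*), a GABA-A receptor (*Gabr*) or a GABA-B receptor (*Gabbr*). This gave 47 of the 51912 genes in the deposited table. The libraries came from 3 genotypes of the homeobox gene *Nkx2.9*: wild-type *Nkx2.9*+/+, heterozygous *Nkx2.9*LacZ/+ and homozygous *Nkx2.9*LacZ/LacZ embryos, in which LacZ replaces the first exon of the gene in the germ line, so that the gene is altered in all cells and not in the midbrain alone. There were 3 libraries per genotype, all on the strain C57Bl/6 per the labels, and each library held the pooled cDNA of 2 midbrains. The libraries are named here by their column in the deposited table: columns 1 to 3 carry the homozygous label, columns 4 to 6 the heterozygous and columns 7 to 9 the wild-type label. The title of the series calls the tissue cortical, whereas the methods describe midbrain. The methods give 1 or 2 litters for each experiment and do not tie litters to libraries, so libraries may share a litter and p-values measure only the spread between these libraries.

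Glutamate excites neurons through ionotropic receptors, which are tetramers of AMPA, kainate or NMDA subunits, and modulates them through metabotropic receptors coupled to G proteins. GABA acts through pentameric GABA-A chloride channels, mostly built of alpha, beta and gamma subunits, and through GABA-B receptors, which are coupled to G proteins. In the embryonic brain GABA is often depolarizing and both transmitters act on migrating and maturing neurons before most synapses exist, and several families replace embryonic subunits with adult ones after birth.

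The libraries held between 1692963 and 5942192 reads on genes, and columns 7 and 4 (2584074 reads) were the shallowest. The targeted gene, *Nkx2-9*, had 28 reads in all 9 libraries: 4, 6 and 3 in columns 1 to 3, 0, 7 and 4 in columns 4 to 6 and 0, 2 and 2 in columns 7 to 9. It was thus not lower under the homozygous label, so these reads do not check the labels, and every direction between genotypes below is that of the labels. A list of 6 forebrain markers, *Six3* among them, summed to 249 to 347 normalized counts per library, although *Dlx1* in this list ran from 0 in column 4 and 4.42 in column 9 to 69.3 in column 6. The midbrain markers *En1*, *En2*, *Otx2*, *Pax7*, *Lmx1b* and *Th* were all detected, and their summed normalized count was 1039 to 1190 in columns 1 to 3, 1027 to 1675 in columns 4 to 6 and 1269 to 1397 in columns 7 to 9. *En1* (-0.60, log2) and *Pax7* (-0.63) were lower in the libraries labelled homozygous than in those labelled wild-type (unadjusted limma test), a call lost without column 1, 7 or 9 for *En1* and without column 3 or 7 for *Pax7*. The other 4 did not pass, with differences of -0.44 (*En2*), 0.045 (*Otx2*), 0.01 (*Lmx1b*) and 0.25 (*Th*). Of all genes tested 2.60% passed the same unadjusted test, and 0 passed after adjustment. The part of these markers in the results below was not tested. In pooled tissue, fewer cells of a type and less RNA per cell cannot be told apart.

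To compare subunits, the normalized count of each gene was divided by the length of its merged exons, and levels between genes are given on this scale, per kb, as the mean ± SD over the 9 libraries. Of the 47 subunits, 37 reached a minimum of 5 normalized counts on average, and these held 175237 of the 175403 reads on the family. The other 10 had between 0 and 45 reads in all libraries together. The 37 ranged from *Gabrg3* (4.24 ± 1.16 per kb) to *Gabbr1* (274 ± 14.4 per kb), which stood above 97.7% of the 13323 protein-coding genes with the same minimum, and their median stood above 60.6% of them (the rank of *Grid1*). Across the 9 libraries the SD of a member was between 5.25% (*Gabbr1*) and 27.4% (*Gabrg3*) of its mean.

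**Figure D1:**
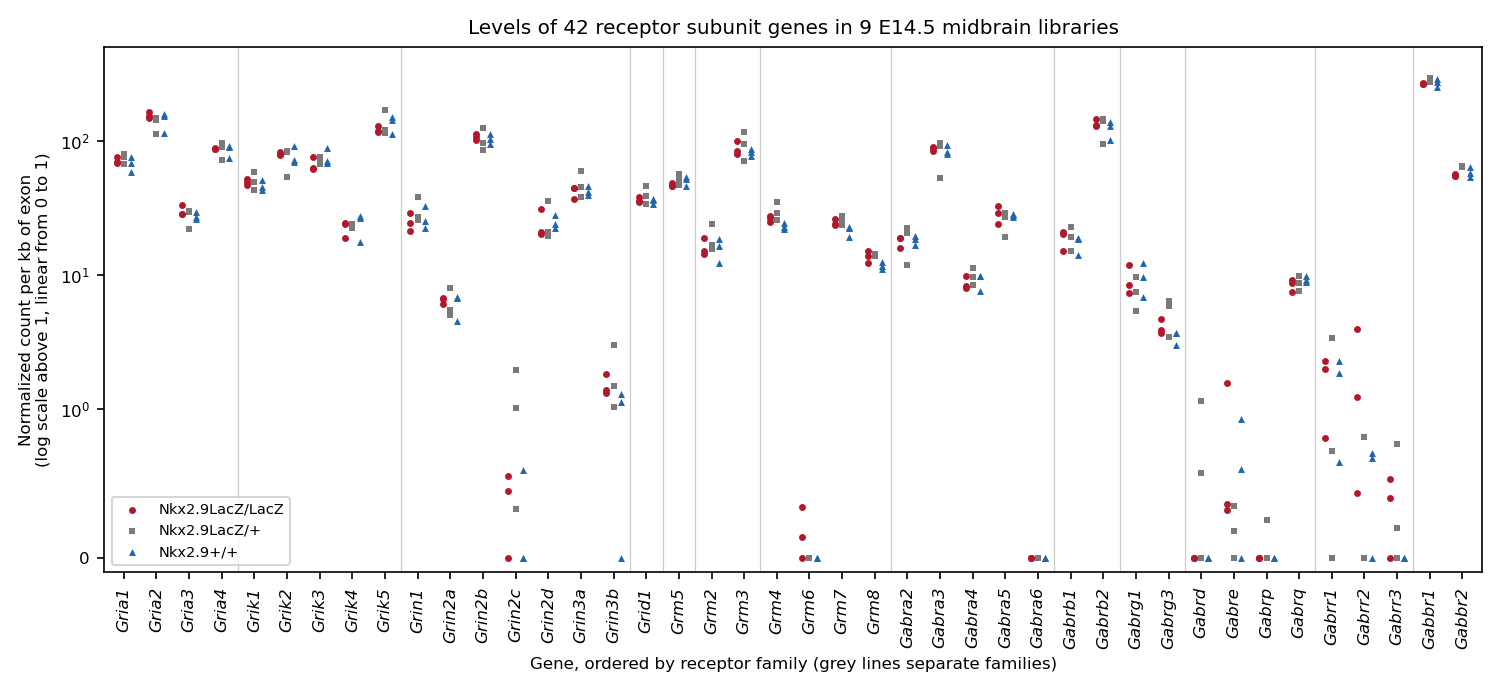
Level of 42 subunit genes, as normalized count per kb of exon, in the 9 libraries (points; colour and shape give the genotype), grouped by receptor family; the axis is logarithmic above 1 and linear below. *Gabbr1* lies highest, at 249.8 to 292 per kb, *Gabra6* has no read in any library, and the genotypes lie on top of each other for most genes.

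The AMPA receptor genes were led by *Gria2*, the subunit that makes the channel nearly impermeable to calcium once its transcript is edited. *Gria2* (ENSMUSG00000033981, GRCm38 chr3:80681450-80802835, minus strand) reached 154, 148 and 164 per kb in columns 1 to 3, 112, 148 and 144 in columns 4 to 6 and 114, 154 and 157 in columns 7 to 9. The 2 low values were those of the shallow columns 4 and 7. *Gria2* made up 43.6% ± 2.78 of the summed AMPA level (SD, n = 9), and was 2.06 ± 0.385 times as high as *Gria1*. The order below it was *Gria4* (85.6 ± 7.85 per kb), *Gria1* (70.8 ± 6.33) and *Gria3* (28.1 ± 3.10). *Gria4* and *Gria1* overlapped over the libraries (71.6 to 95.5 against 58.8 to 79.3 per kb), but *Gria3*, with 21.8 to 33.1 per kb, lay below both in every library. In columns 4 and 7 *Gria1* stood above *Gria4* (79.3 against 71.6 per kb in column 4), the reverse of the order of their means.

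Kainate receptors pair the pore-forming subunits encoded by *Grik1*, *Grik2* and *Grik3* with the high-affinity subunits of *Grik4* and *Grik5*, which need a partner to form a channel. *Grik5* was the highest, with 131 ± 20.1 per kb and 37.2% ± 4.81 of the family. It was followed by *Grik2* (77.0 ± 11.02 per kb), *Grik3* (71.1 ± 8.10) and *Grik1* (48.6 ± 4.90), of which *Grik2* and *Grik3* did not differ beyond their spread. *Grik4*, the other high-affinity subunit, was the lowest at 23.1 ± 3.27 per kb. Library by library, the *Grik5* share was 36.2%, 35.4% and 35.6% in columns 1 to 3, 47.7%, 33.3% and 33.5% in columns 4 to 6 and 40.0%, 32.7% and 40.4% in columns 7 to 9, so that the genotypes overlapped. Without division by length *Grik2*, with 13246 bp of merged exons, led over *Grik5*, with 5168 bp, and with the longest transcript as length *Grik1* stood above *Grik3*.

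NMDA receptors join the obligatory subunit of *Grin1* with *Grin2* subunits, of which *Grin2b* is known as the embryonic and *Grin2a* as a mainly postnatal partner, and *Grin3* subunits lower calcium flow. *Grin2b* (ENSMUSG00000030209, GRCm38 chr6:135713233-136173511, minus strand) reached 101, 107 and 113 per kb in columns 1 to 3, 84.6, 124 and 96.0 in columns 4 to 6 and 112, 102 and 94.6 in columns 7 to 9. The genotypes overlapped, and *Grin2b* was between 15.2 and 20.9 times as high as *Grin2a* (6.20 ± 1.06 per kb) in each library. *Grin2b* made up 76.7% ± 4.15 of the summed *Grin2* level, *Grin2d* 18.3% ± 4.28 and *Grin2a* 4.58% ± 0.585. *Grin2c*, which is typical of the mature cerebellum, had 24 reads in all 9 libraries. Of the *Grin3* subunits, *Grin3a* reached 43.9 ± 6.69 per kb and *Grin3b* had 45 reads. *Grin1* (27.1 ± 5.21 per kb) was lower per kb than *Grin2b* in all 9 libraries, at 0.267 ± 0.0754 of its level, or 0.586 ± 0.166 with the longest transcript as length. The exons of *Grin1* overlap those of the antisense gene *Grin1os* by 1307 bp, and the strand setting of the counting is not given in the sources used here, so sense and antisense reads cannot be told apart there. The exons of 20 of the 47 members overlap those of another annotated gene.

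Of the delta receptor genes, whose products bind cerebellins at synapses and do not act as ordinary glutamate-gated channels, *Grid1* was at 36.9 ± 3.64 per kb.

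Metabotropic glutamate receptors fall into group I, which activates phospholipase C, and groups II and III, which inhibit adenylyl cyclase. In group I *Grm5* was at 49.6 ± 3.86 per kb, and in group II *Grm3* (87.6 ± 13.8) was higher than *Grm2* (16.8 ± 3.38). The ratio of *Grm3* to *Grm2* was 5.39 ± 1.17, with the lowest value, 2.92, in column 4. In group III *Grm4* was at 26.3 ± 3.85, *Grm7* at 23.7 ± 2.32 and *Grm8* at 13.1 ± 1.36 per kb, of which *Grm4* and *Grm7* did not differ beyond their spread and all lay below *Grm5* and *Grm3*. *Grm6*, the receptor of retinal ON bipolar cells, had 3 reads in all, 1 in column 1 and 2 in column 2.

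**Figure D2:**
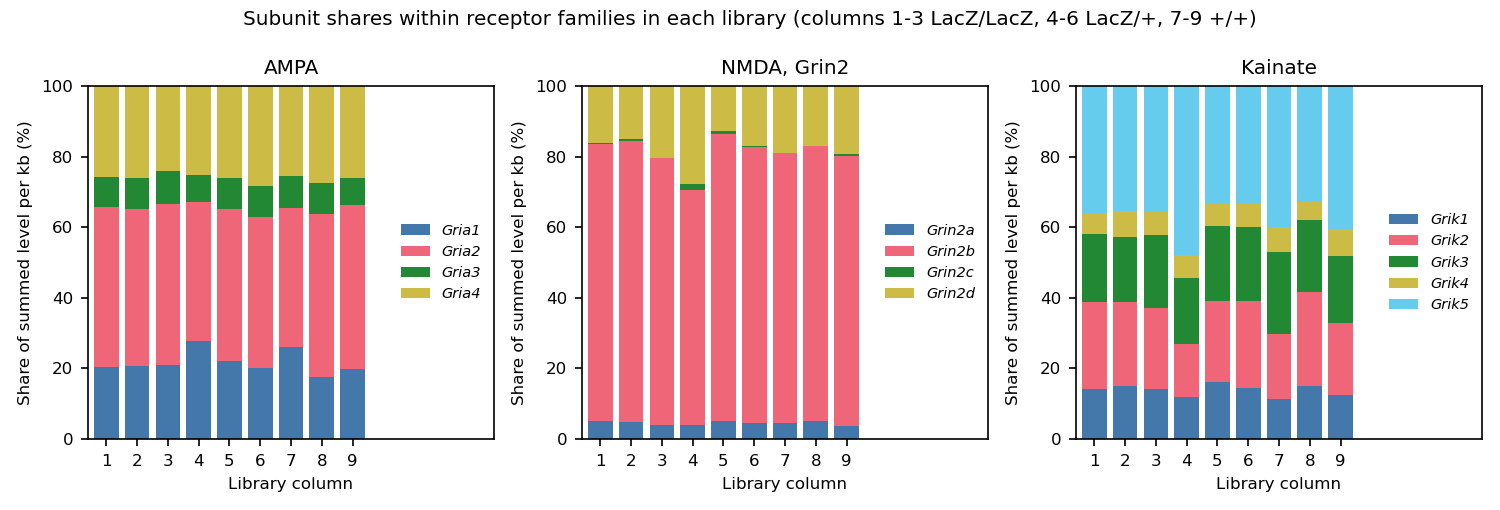
Share of each subunit in the summed level per kb of its family (bars, in %), in the 9 libraries, for AMPA, NMDA (*Grin2*) and kainate subunits. The leading subunits hold similar shares in the genotypes; the *Grin2b* share is 66.7% in column 4 and 75.4% to 81.3% in the other libraries.

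The alpha subunits of the GABA-A receptor, which set its pharmacology and place in the cell, were led by *Gabra3*, a subunit known to be abundant in the developing brain. *Gabra3* (ENSMUSG00000031343, GRCm38 chrX:72432681-72656848, minus strand) reached 90.3, 87.4 and 84.3 per kb in columns 1 to 3, 52.3, 95.3 and 91.3 in columns 4 to 6 and 79.1, 93.0 and 82.0 in columns 7 to 9. Column 4 was far below the others, and the genotypes overlapped. *Gabra5* was at 27.1 ± 3.77, *Gabra2* at 18.0 ± 3.05 and *Gabra4* at 9.13 per kb. *Gabra6*, the subunit of mature cerebellar granule cells, was the only one of the 47 members with 0 reads in all 9 libraries, which allows up to 3 reads over the libraries together (counting error only).

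Among the beta subunits *Gabrb2* reached 129, 131 and 146 per kb in columns 1 to 3, 94.6, 141 and 146 in columns 4 to 6 and 101, 138 and 128 in columns 7 to 9, with the low values in columns 4 and 7. *Gabrb1* was lower than *Gabrb2* in every library, at 18.2 ± 2.97 per kb. Of the gamma subunits, *Gabrg1* was at 8.72 ± 2.27 and *Gabrg3* at 4.24 ± 1.16 per kb. Of the other subunits only *Gabrq* (theta), with 8.77 ± 0.816 per kb, passed the minimum. *Gabrd*, whose subunit serves tonic inhibition outside synapses, had 4 reads, *Gabre* 24 and *Gabrp* 1. The rho subunits, best known from the retina, had 34 (*Gabrr1*), 21 (*Gabrr2*) and 10 reads (*Gabrr3*), of which 11 of the 21 *Gabrr2* reads were in column 1.

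Most GABA-A genes lie in clusters, and in several of them members had very different levels. In the chromosome 11 cluster *Gabra6* (0 reads, 42306437 to 42321072) lies beside *Gabrb2* (128 ± 18.6 per kb, 42419757 to 42629028). The chromosome 5 cluster (*Gabrg1*, *Gabra2*, *Gabra4* and *Gabrb1*) was uniformly low, at 8.72 to 18.2 per kb. On chromosome 7 *Gabra5* (27.1 ± 3.77 per kb) was above *Gabrg3* (4.24 ± 1.16 per kb), and on the X chromosome *Gabra3* (83.9 ± 13.0) neighbours *Gabrq* (8.77 ± 0.816) and *Gabre* (24 reads). The exons of *Gabra4* and *Gabrb1*, which start head to head, overlap by 46 bp on opposite strands.

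The sequence before the start of 5 of these genes is shown to set undetected and detected neighbours side by side: *Gabra6* and *Gabrb2* of the chromosome 11 cluster, *Gabra4* and *Gabrb1* of the low chromosome 5 cluster, and *Gabra3*, the highest alpha subunit. Each is the 250 bases before the RefSeq start (build GRCm38.p6; the most upstream start where RefSeq has several), 5′ to 3′ on the strand of the gene, with every CG dinucleotide in capitals.
*Gabra6* (chr11:42321073-42321322, minus strand): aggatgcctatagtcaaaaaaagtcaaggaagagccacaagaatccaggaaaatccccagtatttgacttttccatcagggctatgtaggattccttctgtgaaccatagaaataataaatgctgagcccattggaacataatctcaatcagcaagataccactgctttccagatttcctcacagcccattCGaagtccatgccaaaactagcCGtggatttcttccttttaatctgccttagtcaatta
*Gabrb2* (chr11:42420190-42420439, plus strand): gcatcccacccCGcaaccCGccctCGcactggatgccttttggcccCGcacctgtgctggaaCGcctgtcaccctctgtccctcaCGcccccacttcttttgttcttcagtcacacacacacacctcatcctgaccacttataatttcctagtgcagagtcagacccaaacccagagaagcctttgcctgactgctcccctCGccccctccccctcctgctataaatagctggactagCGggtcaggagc
*Gabra4* (chr5:71658309-71658558, minus strand): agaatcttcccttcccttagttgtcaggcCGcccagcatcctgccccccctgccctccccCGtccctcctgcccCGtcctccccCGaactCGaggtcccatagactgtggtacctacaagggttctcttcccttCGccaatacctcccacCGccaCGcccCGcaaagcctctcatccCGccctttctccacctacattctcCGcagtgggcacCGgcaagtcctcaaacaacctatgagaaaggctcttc
*Gabrb1* (chr5:71657671-71657920, plus strand): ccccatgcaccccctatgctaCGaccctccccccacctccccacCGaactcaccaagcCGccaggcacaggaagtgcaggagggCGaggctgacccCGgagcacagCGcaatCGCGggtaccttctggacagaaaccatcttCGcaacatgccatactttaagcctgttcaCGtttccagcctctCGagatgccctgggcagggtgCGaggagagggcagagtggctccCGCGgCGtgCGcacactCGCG
*Gabra3* (chrX:72656920-72657169, minus strand): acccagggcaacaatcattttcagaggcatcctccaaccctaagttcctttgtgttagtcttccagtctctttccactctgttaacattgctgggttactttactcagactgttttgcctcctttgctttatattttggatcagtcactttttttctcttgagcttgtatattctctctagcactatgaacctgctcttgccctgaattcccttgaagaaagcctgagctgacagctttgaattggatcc

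The undetected *Gabra6* held 2 CG dinucleotides and its detected neighbour *Gabrb2* 8, whereas the lower *Gabra4* (9.13 per kb) and *Gabrb1* (18.2 ± 2.97 per kb) held 12 and 18. *Gabra3* held 0 at both of its RefSeq starts. RefSeq windows were found for 32 of the 47 members, and CG reads the same on both strands. At least 10 CG dinucleotides, at the start with most of them, were held by 14 of the 23 members over the minimum count that had a window (60.9%) and by 2 of the 9 members under it (22.2%). Over all protein-coding genes these shares were 79.1% and 13.7%, and over all genes with a window 40.2%. Members over the minimum with fewer than 10 included *Grik5* (8), *Grm3* (8) and *Gabrb2* (8) beside *Gabra3*. For the RefSeq starts of *Gabra3*, *Gabrb1* and *Gabrb2* shown here, the bases after the start were not found in a transcript of the GENCODE annotation that gave the gene lengths. The *Gabrb2* window lies inside the annotated gene, which starts at 42419757. The *Gabra4* and *Gabrb1* windows each lie within the annotated span of the other gene.

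GABA-B receptors are obligate pairs of the GABA-binding subunit of *Gabbr1* and the subunit of *Gabbr2*, which carries the receptor to the surface and couples it to G proteins. *Gabbr1* (ENSMUSG00000024462, GRCm38 chr17:37045966-37075067, plus strand) was the highest of all members, with 263, 269 and 266 per kb in columns 1 to 3, 291, 292 and 273 in columns 4 to 6 and 289, 249.8 and 274 in columns 7 to 9. *Gabbr2* was at 59.1 ± 4.64 per kb, so that *Gabbr1* was 4.65 ± 0.265 times as high, between 4.29 and 5.08 in each library.

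Summed over families, the 18 ionotropic glutamate receptor genes reached 933 ± 33.1 per kb, the 19 GABA-A genes 566 ± 69.8, the pair of GABA-B genes 333 ± 18.0 and the 8 metabotropic glutamate receptor genes 236 ± 20.5. By genotype, the ionotropic glutamate sum was 935 ± 38.6 in the homozygous libraries, 936 ± 52.7 in the heterozygous libraries and 928 ± 8.04 in the wild-type libraries (SD, n = 3), and the GABA-A sum was 586 ± 37.3, 551 ± 122 and 561 ± 47.5. The lowest GABA-A sums were those of columns 4 (411) and 7 (507), against 543 to 628 in the other libraries.

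To determine whether any subunit differed with the *Nkx2.9* genotype, the 37 members over the minimum were compared in a limma fit over all 16993 genes above the same minimum. The fit used log2(normalized count + 1), and fold changes are on that scale. The 3 comparisons share libraries and are not independent. Between homozygous and wild-type libraries, 0 of the 37 subunits passed an unadjusted limma p of 0.05, against 2.60% of all genes tested. edgeR and DESeq2 also called 0 of them, and with values corrected for GC content 1 was called (*Grm4*), against 3.51% of all genes. The largest increase among the members was 0.23 (*Gabrg3*; 0.13 without column 3 and 0.14 without column 8), their median was 0.04 against 0.01 over all genes, and their 95% confidence intervals lay between -0.62 and 0.78. A change of 2-fold or more in either direction thus lay outside the interval of every one of the 37.

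Between the heterozygous libraries and the wild-type libraries, 1 of 37 subunits (*Grm4*, higher) passed an unadjusted p of 0.05, against 2.78% of all genes. The members' median was 0.02 against -0.01 over all genes, and the intervals lay between -0.91 and 1.09. Between homozygous and heterozygous libraries, 1 of 37 passed, against 2.64% of all genes, with a median of -0.04 against 0.02 and intervals between -0.86 and 0.86. The share of 1 in 37 (2.70%) is near that over all genes in both. With Benjamini-Hochberg adjustment over the 16993 genes, 0 members and 0 genes of any kind passed 0.05 in the 3 comparisons, and the smallest adjusted p among the members was 0.999.

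**Figure D3:**
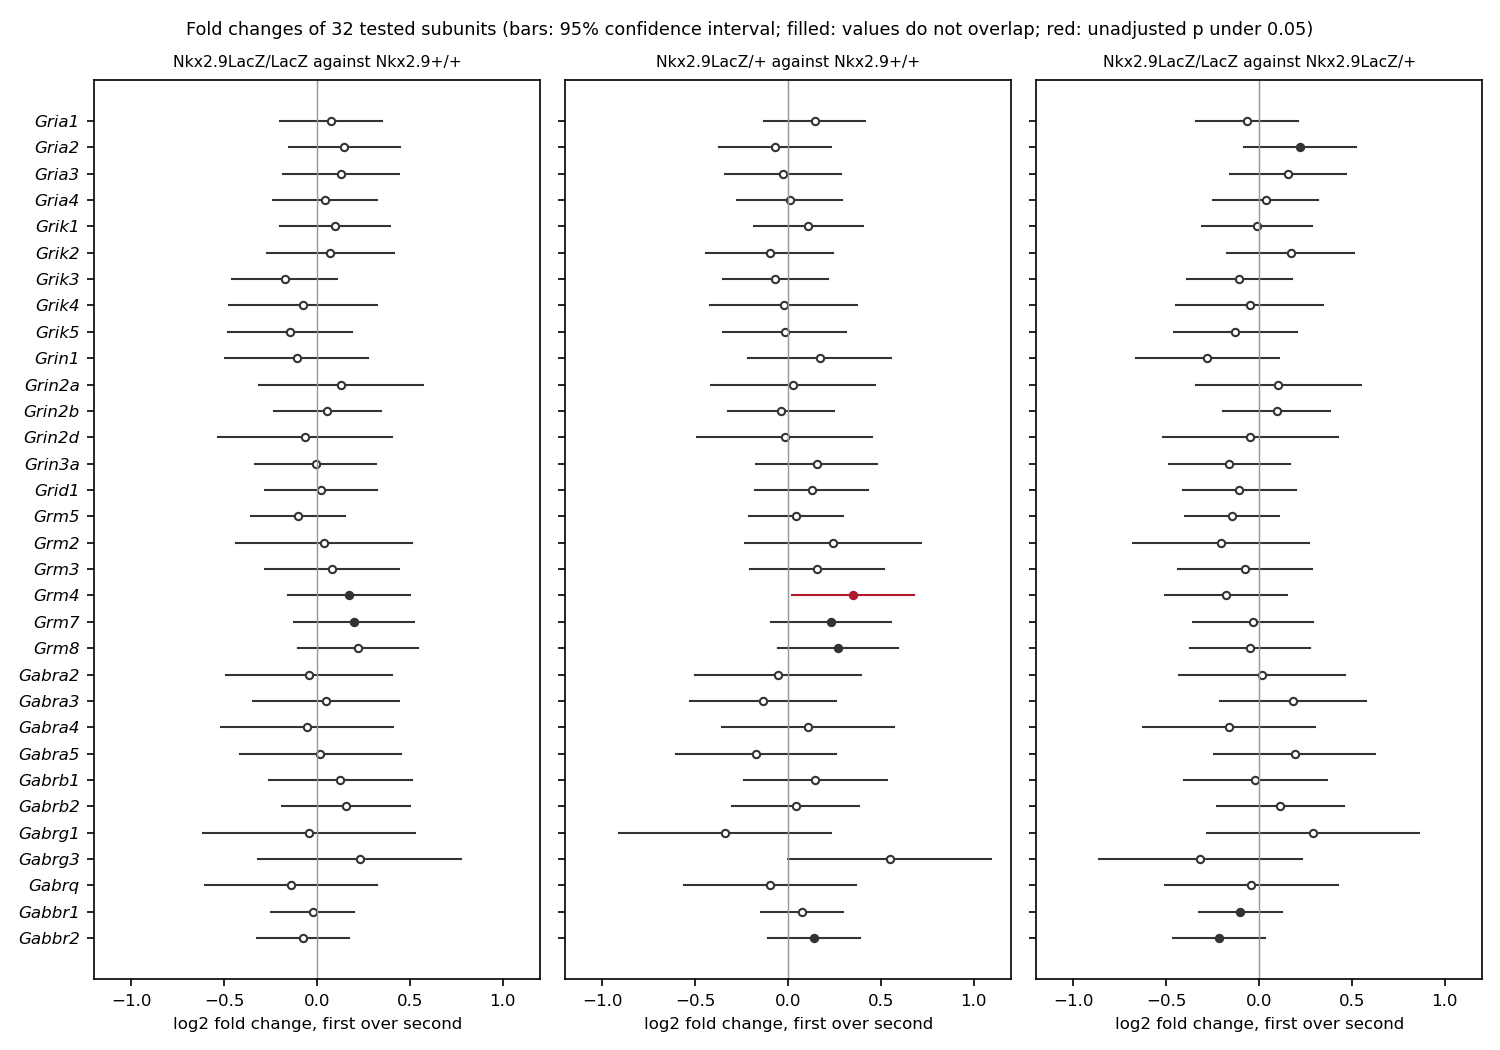
Log2 fold change (points) with its 95% confidence interval (bars) for 32 of the 37 subunits in the 3 genotype comparisons; filled points mark genes whose values do not overlap between the genotypes and red marks an unadjusted limma p under 0.05. *Grm4* (0.35, heterozygous against wild-type libraries) is the only red point shown.

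The inhibitory group III receptors *Grm4*, *Grm7* and *Grm8*, which sit mostly on axon terminals, had their lowest values in the wild-type libraries. *Grm4* (ENSMUSG00000063239, GRCm38 chr17:27422387-27521403, minus strand) had normalized counts of 147, 157 and 163 in columns 1 to 3, 209, 152 and 172 in columns 4 to 6 and 132, 146 and 136 in columns 7 to 9. All wild-type values lay below those of the other genotypes. Between column 8 (145.96) and column 1 (146.78) the gap was close to 1 read, which is 0.70 and 0.75 normalized counts in these libraries. The difference was 0.35 ± 0.15 (log2, SE) for the heterozygous libraries (unadjusted limma p = 0.0382, adjusted p = 1.00) and 0.17 ± 0.15 for the homozygous libraries (unadjusted limma p = 0.280; 0.30 and past the unadjusted threshold with GC-corrected values), and the exact permutation test gave p = 0.1 for both, the smallest it allows with 3 against 3. Without column 4 the difference between heterozygous and wild-type libraries was 0.23 (limma, adjusted p = 0.844) and no longer passed the unadjusted threshold, which was also so without column 2, 6, 7 or 9 (0.32 to 0.37). The exact permutation p of 0.1 follows from the lack of overlap alone, here and for the genes below, so it is no separate support.

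*Grm7* had normalized counts of 139, 141 and 154 in columns 1 to 3, 139, 161 and 145 in columns 4 to 6 and 132, 134 and 113 in columns 7 to 9. Here too the wild-type values lay below all others, with differences of 0.20 ± 0.15 for the homozygous libraries (unadjusted limma p = 0.209) and 0.23 ± 0.15 for the heterozygous libraries (unadjusted limma p = 0.147; exact permutation p = 0.1 for both). Without column 9 these were 0.12 and 0.15. *Grm8* had normalized counts of 121, 135 and 149 in columns 1 to 3, 135, 141 and 142 in columns 4 to 6 and 109, 123 and 116 in columns 7 to 9. Its values did not overlap between the heterozygous libraries and the wild-type libraries (0.27 ± 0.15, limma p = 0.0978, exact permutation p = 0.1), but did between homozygous and wild-type libraries (0.22 ± 0.15, limma p = 0.171, exact permutation p = 0.2). The summed level of group III was 60.6, 64.3 and 68.4 per kb in columns 1 to 3, 72.1, 66.9 and 67.8 in columns 4 to 6 and 55.4, 59.6 and 53.6 in columns 7 to 9. These genes were noticed for this pattern in these libraries, and the wild-type libraries are shared by both comparisons, so the sum is a description.

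*Gabbr2* had normalized counts of 376, 365 and 365 in columns 1 to 3, 427, 432 and 425 in columns 4 to 6 and 424, 383 and 359.9 in columns 7 to 9. Column 6 (425.05) and column 7 (424.12) differ by less than 1 read of column 7, which is 2.59 normalized counts. The heterozygous libraries were above all others: the difference was -0.22 ± 0.12 for homozygous against heterozygous (limma p = 0.0835) and 0.14 ± 0.12 for heterozygous against wild-type libraries (limma p = 0.246; exact permutation p = 0.1 for both), the second of which was 0.09 without column 9. Its partner *Gabbr1*, with counts of 2039, 2092 and 2064 in columns 1 to 3, 2256, 2270.4 and 2119 in columns 4 to 6 and 2247, 1939.6 and 2124 in columns 7 to 9, also lay lower in the homozygous libraries than in the heterozygous libraries (-0.10 ± 0.10, limma p = 0.350, exact permutation p = 0.1). *Gria2* lay higher in every homozygous library (2308 to 2543) than in every heterozygous library (1739 to 2294), with a difference of 0.22 ± 0.14 (limma p = 0.143, exact permutation p = 0.1), which was 0.09 without column 4.

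Over the 37 subunits, 2 (5.41%) had no overlap between the homozygous and wild-type values (*Grm4* and *Grm7*, both higher), against 9.52% of all genes tested. For 4 of 37 (10.8%) there was no overlap between heterozygous and wild-type values (*Grm4*, *Grm7*, *Grm8* and *Gabbr2*, all higher), against 6.91% of all genes. The gaps of *Grm4* between homozygous and wild-type values, and of *Gabbr2* between heterozygous and wild-type values, were about a read or less. Between homozygous and heterozygous values there was no overlap for 5 of 37 (13.5%), among them *Gria2*, which was higher, and *Gabbr1* and *Gabbr2*, which were lower, against 8.71% of all genes.

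**Figure D4:**
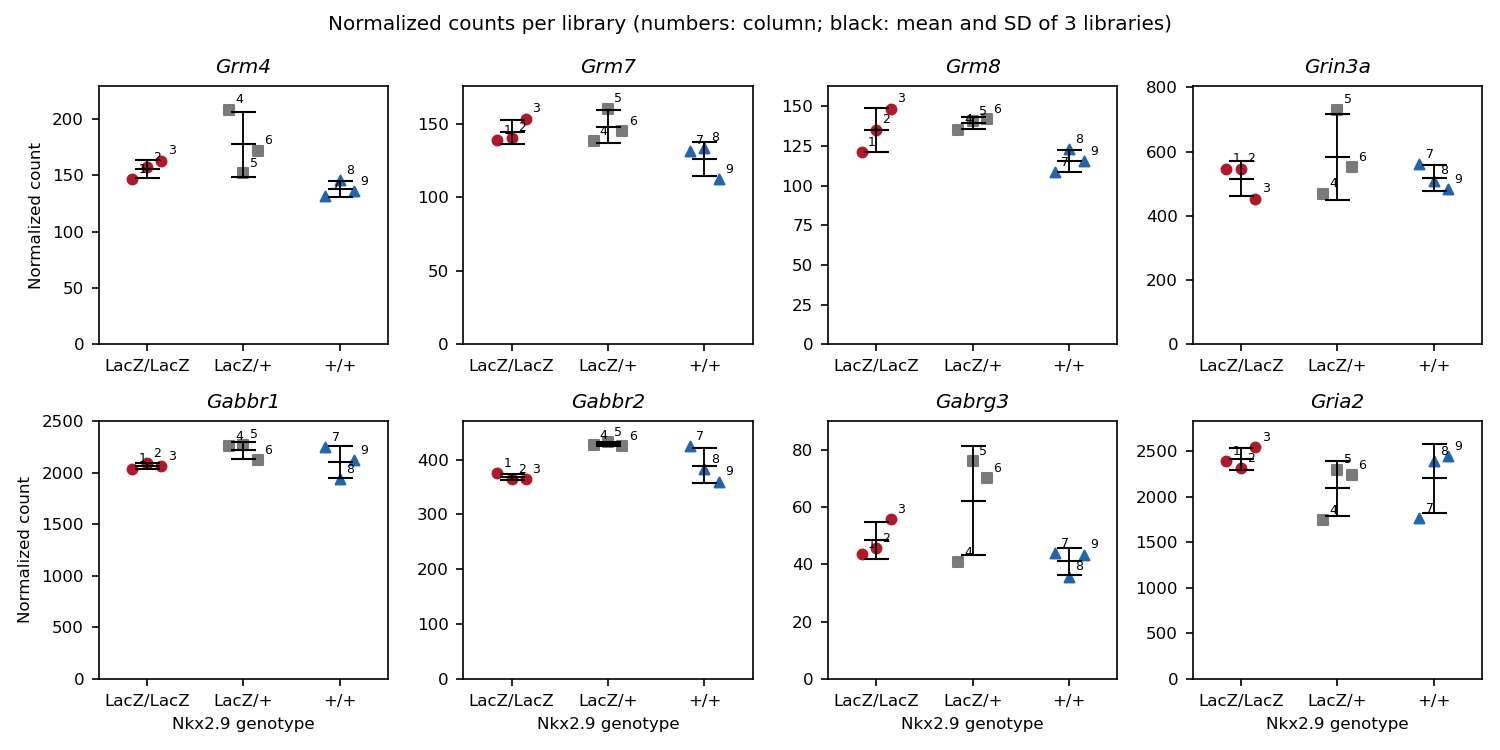
Normalized counts of 8 subunits in the 9 libraries (points, numbered by column) with the mean and SD of each genotype (black). The wild-type values of *Grm4* and *Grm7* lie below those of both other genotypes, heterozygous values of *Gabbr2* (425 to 432) lie above all others, and *Gabrg3* is at 76.0 and 70.2 in columns 5 and 6 but at 40.7 in column 4. The closest *Grm4* values (columns 1 and 8) and *Gabbr2* values (columns 6 and 7) differ by about a read or less.

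The members deviated most from their means in column 4, where their deviations followed base composition. The GC content of the longest transcript ran from 35.3% (*Gabrg1*) to 65.0% (*Grin2d*), with a median of 45.7% against 48.8% over all genes tested. Across the 37 members, the deviation of column 4 from the mean of each gene over the libraries correlated with GC content at r = 0.86 (rho = 0.82), where members share the library and are not independent replicates. Over 16951 genes the same r was 0.43. In column 4 the 17 members under 45% GC had a median deviation of -0.34 (log2; 16 of 17 below 0), and the 6 members of at least 55% GC one of 0.46 (6 of 6 above 0). Column 7 had r = 0.25 over the members, and the other 7 libraries had r between -0.50 and 0.03. Of the 12 GABA-A members over the minimum, 10 are under 45% GC, and *Grik5*, *Grin1*, *Grin2d* and *Grm4* are above 55%.

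**Figure D5:**
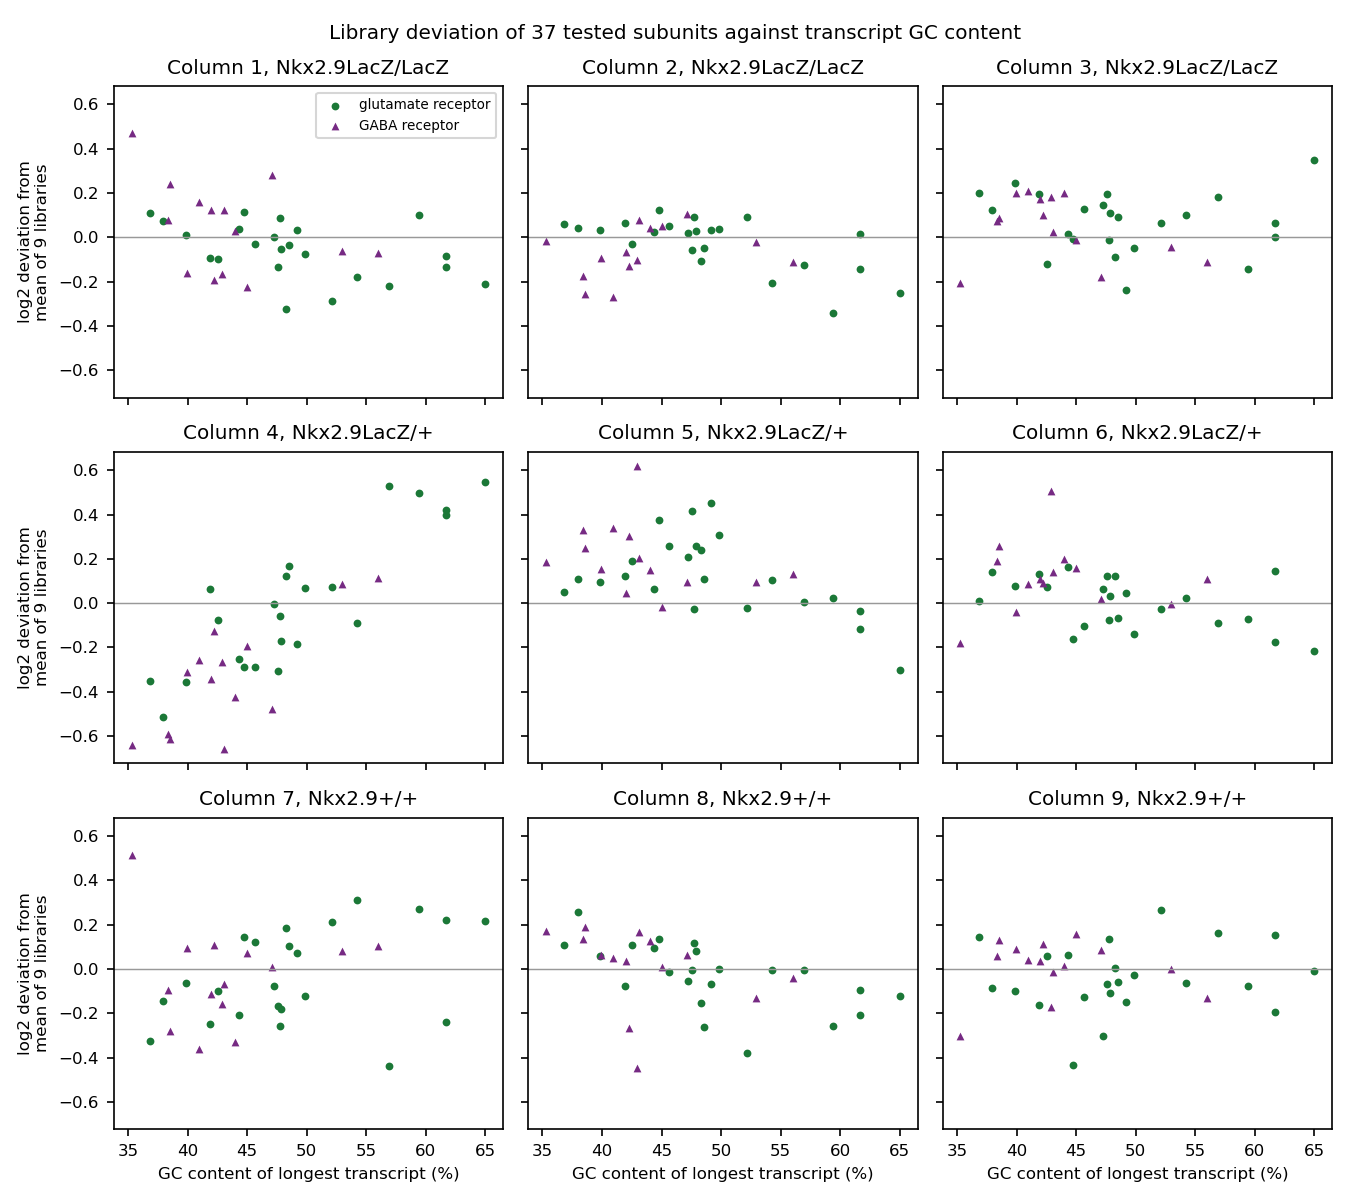
Deviation of each library from the mean of the 9 libraries (log2) against the GC content of the longest transcript (%), for the 37 subunits (circles, glutamate receptors; triangles, GABA receptors). In column 4 the points rise with GC content (r = 0.86), which they do in no other library to that degree.

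Since columns 4 and 7 were the shallowest, the comparisons were repeated without both, an alternative chosen after the data were seen. Between homozygous and wild-type libraries the fit again called 0 of 37 members, against 4.15% of all genes. After Benjamini-Hochberg adjustment 6 of all genes passed 0.05 in this comparison, and 0 of them were members. Between the heterozygous libraries (now columns 5 and 6) and the wild-type libraries (columns 8 and 9) it called 3 of 37, all higher, against 5.01%: *Gabrg3* (0.87 ± 0.25, limma, adjusted p = 0.705), *Grin3a* (0.36 ± 0.13, adjusted p = 0.952) and *Grm3* (0.30 ± 0.14, adjusted p = 0.952). Between homozygous and heterozygous libraries it called 6 of 37, all lower, against 5.72%, among them *Gabrg3* (-0.59 ± 0.23), *Grin3a* (-0.31 ± 0.12), *Grm3* (-0.27 ± 0.13), *Gabbr2* (-0.22 ± 0.10) and *Grm5* (-0.22 ± 0.10), with adjusted limma p between 0.843 and 0.870. The median of the members was then 0.11 for the heterozygous libraries against the wild-type libraries (29 of 37 above 0, all genes 0.00) and -0.08 for the homozygous libraries against the heterozygous libraries (30 of 37 below 0, all genes -0.01). Both rest on columns 5 and 6, and members of one library are not independent. In column 5, 0 of the 17 members under 45% GC lay below their mean over the libraries (median deviation 0.19, log2). The part of GC content in these counts was not tested.

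The values behind these calls show where columns 5 and 6 stood. *Gabrg3*, a gamma subunit of low level, had normalized counts of 43.7, 45.7 and 55.8 in columns 1 to 3, 40.7, 76.0 and 70.2 in columns 4 to 6 and 44.0, 35.8 and 43.4 in columns 7 to 9; with all libraries its difference between the heterozygous libraries and the wild-type libraries was 0.55 ± 0.26 (limma p = 0.0503, exact permutation p = 0.3). *Grin3a* had counts of 547, 547 and 453, then 469, 731 and 552, then 561, 509 and 482. *Grm3* had 241, 254 and 303, then 213, 354 and 288, then 235, 264 and 252. *Grm5* had 473, 497 and 466, then 481, 578 and 534, then 473, 547 and 528. Column 5 held the highest count of all 3 of these genes and of *Gabrg3*, and without it the signs of the *Grin3a* and *Grm3* differences turned (-0.02 and -0.01 for heterozygous against wild-type libraries), while with column 4 included the genotypes overlapped for each. For homozygous against heterozygous libraries *Gabrg3* was at -0.32 and *Grm5* at -0.15 with all libraries, and at -0.15 and -0.08 without column 5. The summed neuron markers, which include *Tubb3*, *Map2* and *Snap25*, were 30818 to 31475 in columns 1 to 3, 26712, 32627 and 33246 in columns 4 to 6 and 29039 to 32272 in columns 7 to 9 (normalized counts). In column 4, 6 of the 9 markers were at their lowest, with *Map2* at 7418 and *Dcx*, a marker of young neurons, at 3779, while 2 were at their highest, *Tubb3* (6810) and *Rbfox3* (309.6). Their part in these differences was not tested.

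*Gria3*, *Gabra3*, *Gabrq* and *Gabre* are X-linked, and the libraries differed in the sex of the pooled embryos. *Xist*, expressed from the inactive X chromosome of females, had normalized counts of 4607 to 5182 in columns 1 to 3, but of 79.9, 14.52 and 2929 in columns 4 to 6 and 4342, 2579.6 and 47.1 in columns 7 to 9, and the summed count of 4 Y-linked genes was at most 2.26 in columns 1 to 3, 3.26 to 1058 in columns 4 to 6 and 0 to 1075 in columns 7 to 9. None of *Gria3*, *Gabra3* and *Gabrq* passed the test in any comparison. For the homozygous libraries against the wild-type libraries their fold changes were 0.13 ± 0.15, 0.05 ± 0.19 and -0.14 ± 0.22 (log2, SE), all within 1 SE of 0. They were 0.06 for *Gria3* without column 3, -0.0001 for *Gabra3* without column 7 and -0.06 for *Gabrq* without column 1. The part of sex in the autosomal differences was not tested.

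Other genes of both transmitter systems were taken from lists of receptor partners and transmitter handling. Of 30 auxiliary and scaffold genes of glutamate receptors, such as the AMPA receptor auxiliary subunit gene *Cacng4* (326 ± 21.6 per kb) and the postsynaptic scaffold gene *Dlg4* (102 ± 10.02 per kb), all 30 were over the minimum and 0 passed an unadjusted limma p of 0.05 in any of the 3 comparisons, against 6.73% of all genes that passed in at least 1, with adjusted p of 0.999 or more. Of 13 auxiliary and scaffold genes of GABA receptors, 1 passed in any comparison, against 6.73% of all genes. It was *Gphn*, which encodes gephyrin, the scaffold of inhibitory synapses. *Gphn* had normalized counts of 458, 443 and 419 in columns 1 to 3, 417, 421 and 438 in columns 4 to 6 and 347, 389 and 347 in columns 7 to 9. It was higher by 0.29 ± 0.12 in the homozygous libraries than in the wild-type libraries (limma p = 0.0255, adjusted p = 1.00, exact permutation p = 0.1), with no overlap between them. It lost the unadjusted call without column 1, 2, 7 or 9 (0.26 to 0.28).

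Of 9 genes of glutamate handling, 8 were over the minimum and 1 passed in any comparison, against the same 6.73%: *Slc17a8*, a vesicular glutamate transporter, with 20.3, 34.8 and 14.6 in columns 1 to 3 against 69.8, 30.9 and 39.7 in columns 7 to 9, with a difference of -0.98 ± 0.41 (log2, SE; limma p = 0.0305, adjusted p = 1.00, exact permutation p = 0.2), although the genotypes overlapped. Without column 1, 3 or 7 it was -0.93, -0.71 and -0.66 and lost the unadjusted call. The vesicular transporter *Slc17a6* was at 146 ± 15.7 per kb, while *Slc17a7*, the main transporter of the mature cortex, had 10 reads in all. Of 8 genes of GABA synthesis, transport and chloride balance, 0 passed in any comparison. They included *Gad1* (71.9 ± 6.95 per kb), *Gad2* (141 ± 12.1), the chloride importer gene *Slc12a2* (28.2 ± 3.99) and the exporter gene *Slc12a5* (92.0 ± 15.6). Of 5 glycine receptor genes, *Glra1* (58 reads) had normalized counts of 3.76, 8.23 and 12.9 in columns 1 to 3, 11.4, 9.39 and 3.26 in columns 4 to 6 and 0, 2.81 and 2.21 in columns 7 to 9. It reached the minimum of 5 on average through the homozygous and heterozygous libraries alone (means of 8.29 and 8.02 against 1.67 in the wild-type libraries), so its values are given with no test. *Glra2*, the embryonic glycine receptor subunit gene, was the highest of these at 78.4 ± 12.5 per kb and did not pass in any comparison.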

How the data were processed

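RNA of dissected E14.5 midbrains was measured in 9 libraries, 3 per genotype, each of 2 pooled midbrains. The paper's methods give column extraction, ribosomal RNA depletion and paired-end sequencing, whereas the labels name Trizol and an mRNA protocol. Alignment used Hisat2 with the GRCm38/mm10 genome, and reads per gene came from featureCounts. Versions, annotation and strand setting are not given in the sources used here. The deposited signal is a normalized count per gene, which the authors made by dividing read counts by 1 DESeq2 size factor per library. Whole reads were recovered from it for 100% of the 210686 values above 0, to a relative tolerance of 1e-06. The authors' 3 tables of fold changes, standard errors, Wald statistics and p-values were not used. Results that need certain members or markers are not reported here.

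Columns carry a genotype but no replicate number. Names, lengths and positions came from GENCODE release 21 for mouse (GRCm38; 279 identifiers did not match). The members were found by symbol, and the subunits, lists and tests were chosen with earlier results of these data known. The main test was limma 3.58.1 in R 4.3.3 (lmFit, eBayes with a trend, two-sided) on log2(normalized count + 1) in the 9 libraries, for the 16993 genes with a mean of at least 5. It was also run on simulated counts, drawn independently for each gene and library. The simulated counts held no trend with GC content, unlike column 4. An exact permutation test was run beside named members. For members named because their values do not overlap, that rule fixes its p. Named members are those highest and lowest in a family, those with an unadjusted p under 0.05 or without overlap between 2 genotypes, and those with under 3 reads. *Gabrg3*, *Grin3a*, *Grm3* and *Grm5* were added after their values were seen, as were genes of other lists named as examples and the alternatives with GC correction and without columns 4 and 7. Further alternatives were other pseudocounts, minimums, scalings and gene lengths, recovered reads tested with edgeR 4.0.16 and DESeq2 1.42.0, and fits that each leave out 1 library. Figures were drawn with matplotlib 3.10.9.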

Additional observations from a re-analysis of the deposited data

How the results depend on the processing

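The 10 members under the minimum held 0 to 11 reads in each library, and their counting error is large at this depth. Between *Nkx2.9*LacZ/LacZ and *Nkx2.9*+/+ the number of members called stayed 0 except with GC-corrected values, where it was 1 (*Grm4*, 0.30), against 3.51% of all genes. For *Nkx2.9*LacZ/+ against *Nkx2.9*+/+ it was 1 as reported (2.78% of all genes), 2 with a pseudocount of 0.5, upper-quartile scaling, quantile normalization or edgeR (2.19% to 2.79%), 4 without a minimum (46 members tested; 3.59%), 0 with only the 2 genotypes in the fit (1.67%), 3 with GC-corrected values (3.80%), 3 without columns 4 and 7 (5.01%), and 0 to 3 when 1 library was left out (3 without column 4, against 5.51%; 0 without column 2, 6, 7 or 9, against 2.22% to 3.53%). For *Nkx2.9*LacZ/LacZ against *Nkx2.9*LacZ/+ it was 1 as reported (2.64%), 3 without a minimum (3.58%), 0 with only the 2 genotypes, quantile normalization or DESeq2 (1.90% to 2.73%), 2 with GC-corrected values (3.19%), 6 without columns 4 and 7 (5.72%), and 0 to 3 when 1 library was left out (3 without column 4, against 2.91%; 0 without column 1, 2, 3, 5, 6, 8 or 9, against 1.73% to 4.36%). The cause of these changes was not tested. *Grm4* kept its direction under all 21 alternatives and lost its call under 8 of them. Of 25 named fold changes, 5 changed sign under an alternative. *Gabra3*, *Nkx2.9*LacZ/LacZ against *Nkx2.9*+/+, was -0.0471 with GC-corrected values, -0.0001 without columns 4 and 7, and -0.0001 (without column 7) to 0.116 (without column 8) when 1 library was left out. *Grin3a* and *Grm3* ran from the value without column 5 to that without column 4: -0.0208 to 0.298 and -0.0133 to 0.349 for *Nkx2.9*LacZ/+ against *Nkx2.9*+/+, and 0.0134 to -0.306 and 0.0944 to -0.268 for *Nkx2.9*LacZ/LacZ against *Nkx2.9*LacZ/+.

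The shares within families depended on gene length and moved by less than their SD over the libraries when any library, or columns 4 and 7, were left out. With the longest transcript as length the *Gria2* share was 48.2%. With no division by length the shares were 64.0% (*Gria2*), 90.2% (*Grin2b*) and 24.2% (*Grik5*). No paired analysis was possible because the columns carry no replicate numbers.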
